A study of Homo sapiens with 2 samples.

Results

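The 9 genes described here encode the machinery through which a cell senses type I interferon: the receptor chains IFNAR1 and IFNAR2, the kinases JAK1 and TYK2, the transcription factors STAT2, STAT3 and IRF9, and the feedback inhibitors SOCS1 and SOCS3. They were taken by name from the 58735 genes of the deposited expression tables, and all 9 were found. The tables come from RNA sequencing of BT549 cells, a mesenchymal-like line from a triple-negative breast tumour, with 1 library per group. Each culture was exposed to the ligand Wnt3a for 2 h. Cells of the scrambled group expressed a control short hairpin RNA, and those of the shSIK2 group a hairpin aimed at SIK2, a salt-inducible kinase. The sources used here do not give the number of hairpin sequences, or say whether the cells were single clones. No culture without Wnt3a was analysed here, so the values compare the hairpins and not the response to the ligand.

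Type I interferons such as interferon beta bind IFNAR1 together with IFNAR2. IFNAR1 carries TYK2 and IFNAR2 carries JAK1, and these kinases phosphorylate STAT2 and other STAT proteins. The phosphorylated STATs join IRF9 in the complex ISGF3, which binds interferon-stimulated response elements in antiviral genes. STAT3 is the main STAT downstream of the IL-6 family of cytokines, which signal through the receptor gp130. SOCS1 and SOCS3 are induced by STATs and shut the pathway down, SOCS1 mostly at the kinases and SOCS3 mostly at gp130 receptors. STAT2, IRF9 and SOCS1 are themselves known as interferon-inducible genes.

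Reads assigned to genes numbered 18019225 in scrambled and 16347399 in shSIK2. SIK2 itself stood at 7.80 FPKM in scrambled and 3.56 in shSIK2, 2.19-fold lower, or 1.99-fold at equal total reads. FPKM, fragments per kilobase of gene, is used as deposited, with the same depth divisor in both libraries. VIM and CD44, genes of mesenchymal breast lines, were high in both libraries, and COL1A2 was the 1 of 8 mesenchymal markers below 1 FPKM. Of the luminal breast markers PGR and EPCAM had no reads in either library, and of 14 leukocyte markers none reached 1 FPKM. With 1 library per group no difference below has a replicate check and no test was possible. Intervals are 95% exact intervals that cover counting error only. Those of ratios between the libraries are for reads as deposited, not scaled to library totals. In bulk RNA, fewer cells that express a gene cannot be told apart from less RNA per cell.

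JAK1 had the highest level of the 9 genes in both libraries and IFNAR2 was listed lowest in both. In the scrambled library the levels ran from JAK1 down through STAT3, then SOCS3 and TYK2, then IFNAR1, then STAT2, and last IRF9, SOCS1 and IFNAR2. SOCS3 and TYK2 had overlapping counting intervals there, as did IRF9 with SOCS1 and SOCS1 with IFNAR2. In the shSIK2 library the counting intervals of STAT2 and IFNAR1 overlapped, as did those of TYK2 and SOCS3 and those of SOCS1 and IRF9. Among the 12866 measured genes, 3.37% were at least as high as JAK1 in the scrambled library, 11.3% at least as high as STAT3 and 64.0% at least as high as STAT2. A gene was called measured when its higher library reached 1 FPKM. IFNAR1, JAK1, TYK2, STAT2, STAT3 and SOCS3 passed this minimum, and IFNAR2, IRF9 and SOCS1 did not.

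**Figure D1:**
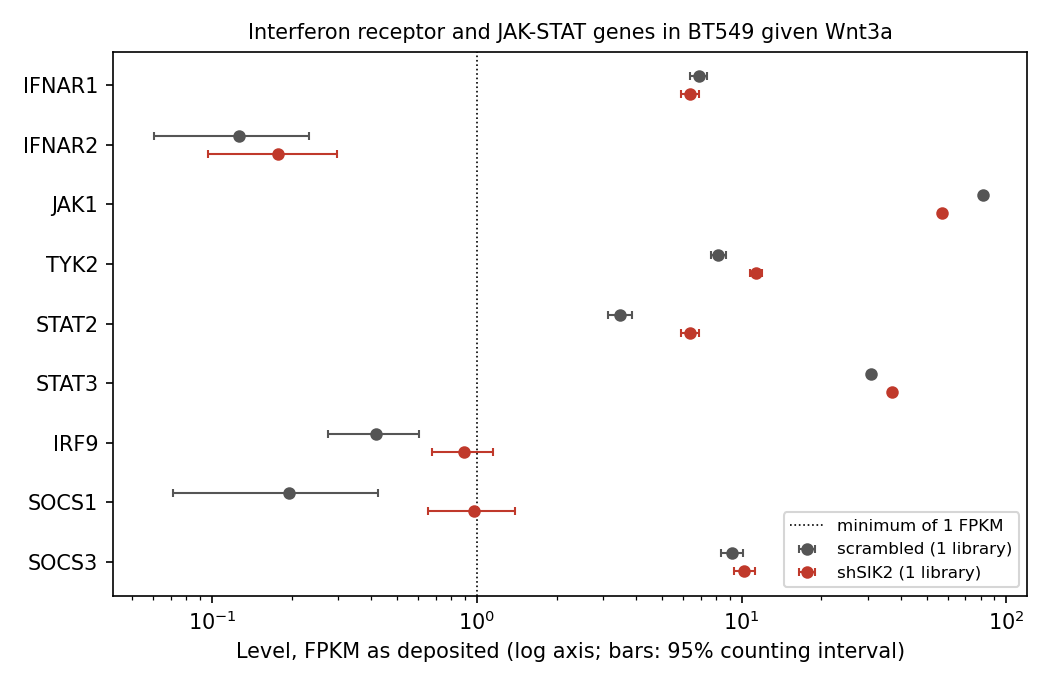
Levels of the 9 genes in FPKM on a log axis, with the scrambled library in grey and the shSIK2 library in red, and bars for 95% counting intervals. JAK1 lies highest in both libraries, at 81.8 and 57.04 FPKM, and IFNAR2, IRF9 and SOCS1 lie below the dotted minimum of 1 FPKM.

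IFNAR1 differed little between the libraries, and IFNAR2 had too few reads to compare. IFNAR1 (ENSG00000142166, GRCh38 chromosome 21, 33324477 to 33359862, plus strand, 6301 exonic bases) stood at 6.88 FPKM in scrambled and 6.38 in shSIK2, from 744 and 690 reads. The libraries differed 1.08-fold, with a counting interval from 0.97 to 1.20 that includes equal levels. At equal total reads the shSIK2 library was the higher by 1.02-fold. Of the measured genes 50.03% had a lower ratio than IFNAR1, which placed it at the middle of the transcriptome. Within 1 Mb of it, 16 measured genes had a median log2 ratio of 0.39, with 3 at least 2-fold higher and 0 lower.

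IFNAR2 (ENSG00000159110, chromosome 21, 33229901 to 33265675, plus strand) had 10 reads in scrambled and 14 in shSIK2, listed as 0.13 and 0.18 FPKM. The 1.40-fold higher value in shSIK2 had an interval from 0.58 to 3.52, so no difference was detectable at this depth. Taken at face value, IFNAR1 exceeded IFNAR2 by 54.5-fold in scrambled (29.5 to 114) and by 36.1-fold in shSIK2 (21.4 to 66.4). These ratios cannot be read as a surplus of one chain, because most IFNAR2 exons are also annotated to other genes. Of its 4614 exonic bases, 2038 are shared with AP000295.1, a protein-coding model on the same strand whose exons also cover 1732 bases of the neighbouring receptor gene IL10RB. A further stretch is shared with the antisense gene IL10RB-DT, which overlaps 1803 bases, and 773 bases, or 16.8%, belong to IFNAR2 alone.

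The tables themselves show how such exons were counted. Of 282 protein-coding genes whose every exonic base lies in exons of another gene on the same strand, 262 (92.9%) had no read in either library, and none had more than 3 reads over both. Among 11097 protein-coding genes with no shared base, 29.03% had no reads. Of 710 genes of any type that are covered by exons of the opposite strand only, 709 had no read. Many genes of any type had none, since 21622 of all 58735 had reads in scrambled and 22790 in shSIK2. The share without reads among genes of any type with no shared base was not computed. Reads in shared exons were therefore almost absent from the tables, whichever strand the other gene was on. AP000295.1 had 0 reads in both libraries, and IL10RB, which shares 1732 bases with it, had 1 and 7.

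**Figure D2:**
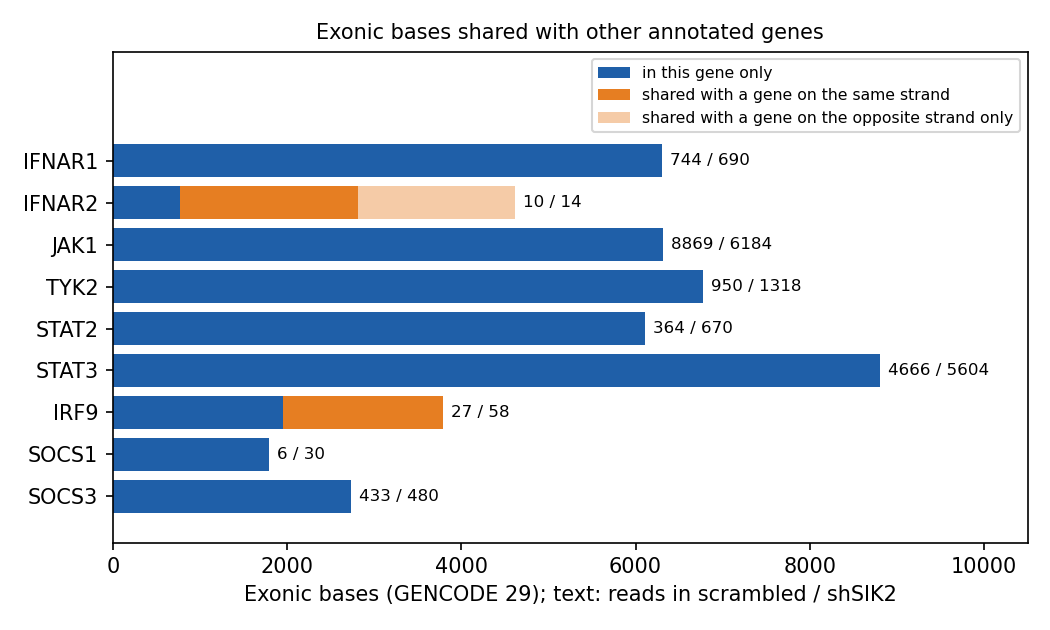
Exonic bases of each gene in GENCODE release 29, divided into bases in that gene only (blue) and bases shared with a gene on the same strand (orange) or on the opposite strand only (light), with reads in scrambled and shSIK2 printed at the end of each bar. IFNAR2 keeps 773 bases of its own and IRF9 1956, while JAK1 shares 4 bases and the other 6 genes share none.

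Divided by its 773 unshared bases, the IFNAR2 reads correspond to 0.75 FPKM in scrambled and 1.06 in shSIK2, still below IFNAR1 in both. This value assumes that all counted reads came from unshared bases. IRF9 is touched in the same way, since 1838 of its 3794 exonic bases are shared with the same-strand model AL136295.5, which had 2 and 11 reads. IFNAR2 and IRF9 levels are therefore uncertain, and the exonic length divides out of their ratio between libraries.

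The kinases differed in opposite directions. JAK1 (ENSG00000162434, chromosome 1, 64833229 to 64966504, minus strand, 6317 exonic bases) stood at 81.8 FPKM in scrambled and 57.04 in shSIK2, from 8869 and 6184 reads. It was the only member of the 9 that was lower in shSIK2 by more than counting error, 1.43-fold (1.39 to 1.48). At equal totals the difference was 1.30-fold, and with the trend in GC content and length removed the log2 ratio went from -0.52 to -0.36. Of all measured genes 24.4% had a lower ratio, so a difference of this size was common in these libraries. The 8 measured genes within 1 Mb had a median log2 ratio of 0.01.

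TYK2 (ENSG00000105397, chromosome 19, 10350529 to 10380676, minus strand, 6773 exonic bases) went the other way, at 8.17 and 11.3 FPKM from 950 and 1318 reads. The shSIK2 library was 1.39-fold higher (1.28 to 1.51), or 1.53-fold at equal totals. TYK2 transcripts are rich in GC, at 61.3%, and the measured genes in the same of 20 equal bins of GC content had a median log2 ratio of 0.26 against -0.11 for all measured genes. With the trend in GC content and length removed, the log2 ratio of TYK2 was 0.12 in place of 0.47. The 50 measured genes within 1 Mb of TYK2 had a median of 0.19. Between the partners, JAK1 exceeded TYK2 by 10.01-fold in scrambled (9.36 to 10.7) and by 5.03-fold in shSIK2 (4.74 to 5.34). These intervals do not overlap, but they cover counting error only. No partner ratio was computed with the trend removed. The log2 ratios of JAK1 and TYK2 were then closer together, at -0.36 and 0.12, against -0.52 and 0.47 as deposited.

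STAT2, the STAT that is particular to interferon signalling, showed the largest ratio among the 6 measured members. The gene (ENSG00000170581, chromosome 12, 56341597 to 56360155, minus strand, 6109 exonic bases) stood at 3.47 FPKM in scrambled and 6.39 in shSIK2, from 364 and 670 reads. This is 1.84-fold higher in shSIK2 (1.62 to 2.10), and 2.03-fold at equal totals. On the log2 scale with a pseudocount of 0.1 FPKM it was 0.86 as deposited, 0.999 at equal totals, just short of 2-fold, and 0.92 with the GC and length trend removed. Of the measured genes 13.5% had a higher ratio. The 49 measured genes within 1 Mb had a median of -0.04, with 6 at least 2-fold higher and 1 lower.

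STAT3 (ENSG00000168610, chromosome 17, 42313324 to 42388568, minus strand, 8812 exonic bases) was far more abundant, at 30.9 and 37.05 FPKM from 4666 and 5604 reads. It was 1.20-fold higher in shSIK2 (1.16 to 1.25) and 1.32-fold at equal totals. Its 53 measured neighbours within 1 Mb had a median log2 ratio of -0.14. Because STAT2 differed more than STAT3, the excess of STAT3 over STAT2 was 8.89-fold in scrambled (7.99 to 9.91) and 5.80-fold in shSIK2 (5.35 to 6.29).

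IRF9, the DNA-binding partner in ISGF3, lay below the minimum in both libraries. The gene (ENSG00000213928, chromosome 14, 24161053 to 24166565, plus strand) had 27 reads in scrambled and 58 in shSIK2, listed as 0.41 and 0.89 FPKM. The shSIK2 value was 2.15-fold higher, with a wide interval from 1.34 to 3.53. Over its 1956 unshared bases alone the reads correspond to 0.80 and 1.73 FPKM. The 34 measured genes within 1 Mb of IRF9 had a median log2 ratio of 0.32, with 4 at least 2-fold higher and 0 lower.

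SOCS1 (ENSG00000185338, chromosome 16, 11254405 to 11256200, minus strand, 1796 exonic bases in 1 block) had the largest fold of the 9 genes and rested on few reads. It had 6 reads in scrambled and 30 in shSIK2, listed as 0.19 and 0.97 FPKM. The 5.0-fold higher value in shSIK2 had an interval from 2.05 to 14.7. SOCS1 transcripts have a GC content of 69.1%, and the measured genes in its GC bin had a median log2 ratio of 0.49. The 11 measured genes within 1 Mb had a median of 0.09. No trend-corrected value was computed below the minimum of 1 FPKM, and the part of GC content in this difference was not tested.

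SOCS3 (ENSG00000184557, chromosome 17, 78356778 to 78360077, minus strand, 2734 exonic bases) was the abundant inhibitor, at 9.23 and 10.2 FPKM from 433 and 480 reads. As deposited, the libraries differed 1.11-fold, with an interval from 0.97 to 1.27 that includes equal levels. At equal totals SOCS3 was 1.22-fold higher in shSIK2, and no interval was computed at that scaling. With the GC and length trend removed, its log2 ratio went from 0.15 to -0.25, so its direction depends on that step. The 15 measured genes within 1 Mb had a median of 0.24. SOCS3 exceeded SOCS1 by 47.4-fold in scrambled (21.6 to 129.9) and by 10.5-fold in shSIK2 (7.27 to 15.8).

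**Figure D3:**
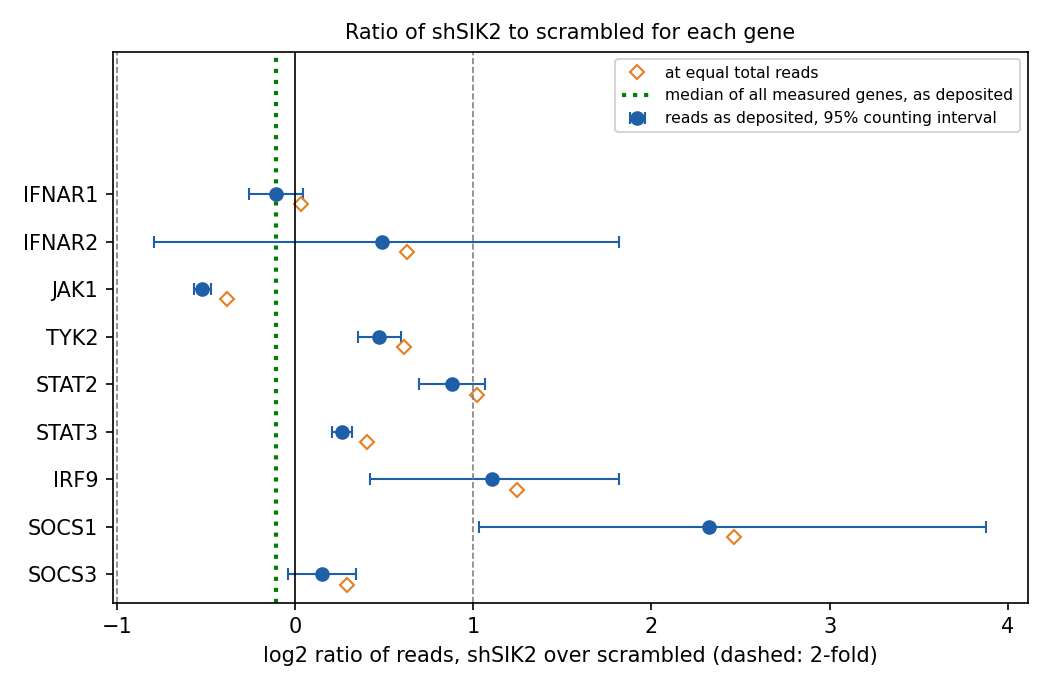
Log2 ratio of reads, shSIK2 over scrambled, for each gene, with filled points and 95% counting intervals as deposited and open diamonds at equal total reads. JAK1 lies to the left of 0, and TYK2, STAT2, STAT3, IRF9 and SOCS1 lie to the right with intervals that leave out 0, while IFNAR1, IFNAR2 and SOCS3 include it.

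Counted over the 9 genes, 7 had more reads in shSIK2 and 2 had fewer, or 8 and 1 at equal totals. As deposited, the interval left out equal levels for 6 of the 9 genes. The shares of all measured genes with more reads in shSIK2, or with such an interval, were not computed. These counts of members are therefore no result about the list. Of the 6 measured members, 0 were at least 2-fold higher in shSIK2 and 0 at least 2-fold lower, where 11% and 8.28% of all measured genes were. At 1.5-fold, 1 member (STAT2) was higher and 0 were lower, against 19.7% and 21.3% of all measured genes. The count at 1.5-fold lies close to the share of all genes and is no result about these genes. Their median log2 ratio was 0.21, beside -0.11 for all measured genes. Equal totals would raise log2 ratios by 0.14, less for low genes because of the pseudocount, and the median over measured genes would then be 0.03. It also changes the split of all genes that differ by 2-fold, from 57.0% higher in shSIK2 to 68.9%. The shares of all measured genes at equal totals were 13.4% (higher) and 6.04% (lower) for 2-fold, and 24% and 15.8% for 1.5-fold, where 2 members (STAT2 and TYK2) were higher.

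Because STAT2, IRF9 and SOCS1 were all higher in shSIK2, their promoters were searched for the binding motifs of interferon-activated STAT complexes. RefSeq windows on GRCh38.p14, from 250 bases before to 50 after a transcript start, were at hand as 12 windows for 8 of the 9 genes (all but IFNAR2). The core of the ISGF3 element, GAAANNGAAA on either strand, was in 1 window, that of SOCS1, and in 3.57% of all 35116 windows. The core of the STAT dimer element (GAS), TTCNNNGAA, reads the same on both strands. It was also in 1 window, that of IRF9, and in 7.66% of all windows. The STAT2 window held neither. With 1 of 12 windows for each core, these counts are no result about the members. The matches describe letters and not occupied sites, and their part in the ratios was not tested. The 250 bases before the RefSeq start of IRF9 (chr14:24161015-24161264, plus strand) and of SOCS1 (chr16:11256205-11256454, minus strand) are shown 5′ to 3′. They hold the matches, in capitals, which begin 63 and 113 bases before that start. For IRF9 the GENCODE gene start, 24161053, lies upstream of the RefSeq start, so the match falls inside the gene as annotated there.
IRF9: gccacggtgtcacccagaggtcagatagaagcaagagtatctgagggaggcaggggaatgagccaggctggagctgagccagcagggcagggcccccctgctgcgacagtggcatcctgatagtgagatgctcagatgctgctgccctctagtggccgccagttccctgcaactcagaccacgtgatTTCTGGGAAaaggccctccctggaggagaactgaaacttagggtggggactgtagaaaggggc
SOCS1: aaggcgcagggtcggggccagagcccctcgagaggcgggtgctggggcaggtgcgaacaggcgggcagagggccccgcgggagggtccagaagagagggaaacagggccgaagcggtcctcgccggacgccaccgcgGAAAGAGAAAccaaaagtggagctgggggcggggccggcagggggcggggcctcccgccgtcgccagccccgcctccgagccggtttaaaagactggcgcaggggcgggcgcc

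Most measured target genes of ISGF3 were lower in shSIK2, where STAT2 and IRF9 were higher. Of 32 listed targets 26 were measured, and 17 of these were at least 2-fold lower in shSIK2 and 0 at least 2-fold higher, with a median log2 ratio of -1.98, where 8.28% and 11% of all measured genes were. At equal totals the counts were also 17 and 0. For 5 of the 26 the shSIK2 library lay under the minimum, and for 0 the scrambled library did. These 5 were ISG20, OAS2, RSAD2, HERC6 and CMPK2. They passed through the scrambled library alone, so the filter gave their lower values in shSIK2. All 5 are among the 17 and enter the median. OASL, IFIT1 and IFIT2 reached the minimum in both libraries. RSAD2, OASL, IFIT1 and IFIT2, antiviral effectors, had the lowest ratios, between 9.59-fold and 16.8-fold lower. Promoter windows were at hand for 26 of the 32 targets, which are not the same 26 genes as those measured. Of the genes with a window, 19 held the ISGF3 core, in 23 of their 37 windows, against 3.57% of all windows. Taken at face value, STAT2 exceeded IRF9 by 8.37-fold in scrambled (5.66 to 12.9) and by 7.17-fold in shSIK2 (5.48 to 9.55), intervals that overlap. The size of both ratios is uncertain, because IRF9 was taken over its full exonic length, shared bases included. IRF9 levels over unshared bases alone are higher, which makes both ratios smaller.

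The measured interferon ligands were lower in shSIK2. Of 21 interferon genes 3 were measured, and all 3 were at least 2-fold lower in shSIK2, where 8.28% of all measured genes were. At equal totals all 3 were also lower, beside 6.04% of all measured genes. Each of the 3 passed the minimum through the scrambled library alone, so a lower value in shSIK2 was given by that filter. The count is therefore no result about the list. IFNB1, the gene of interferon beta, had 405 reads in scrambled and 3 in shSIK2. IFNE, an epithelial interferon, had 47 and 14 reads. IFNL1, a type III interferon with its own receptor, had 23 and 0 reads, at least 7.67-fold lower against a floor of 3 reads for a count of 0, and the exact interval of this ratio starts at 5.75.

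Among related kinases and STATs, JAK2 and STAT5B were lower in shSIK2. Of 7 other JAKs and STATs 5 were measured, 1 at least 2-fold higher (JAK3) and 1 at least 2-fold lower (JAK2), with a median log2 ratio of -0.32. Counts this small are no result about the list beside the 11% and 8.28% of all measured genes. JAK2, a kinase of cytokine and growth hormone receptors, stood at 14.1 FPKM and 6.63, 2.12-fold lower in shSIK2 (1.94 to 2.32), and fell short of 2-fold at equal totals, with a log2 ratio of -0.93. JAK1 exceeded JAK2 by 5.82-fold in scrambled (5.51 to 6.15) and by 8.60-fold in shSIK2 (7.96 to 9.32). JAK3, a kinase mostly of lymphoid receptors, had 5 reads in scrambled and 118 in shSIK2, 23.6-fold higher (9.83 to 74.03), at 1.01 FPKM in the latter. It passed the minimum through the shSIK2 library alone, so a higher value there was given by that filter. The 14 leukocyte markers had 32 and 64 reads in all, with 8 of the 14, CD3E and CD3D among them, at 0 in both libraries. CD4 had 3 and 25 reads, 8.33-fold higher in shSIK2 (2.54 to 43.1), ITGAM 4 and 12, CSF1R 1 and 7, CD14 17 and 18, PTPRC 5 and 2, and CD8A 2 and 0. These genes lay below the minimum, and their part in the JAK3 difference was not tested. STAT5B was 1.25-fold lower (1.11 to 1.42).

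The measured chains of the interferon gamma receptor were both higher in shSIK2. IFNGR1, its ligand-binding chain, stood at 41.1 and 67.96 FPKM, 1.65-fold higher (1.57 to 1.74). IFNGR2, which lies beside IFNAR1 on chromosome 21, stood at 5.83 and 8.70 FPKM, 1.49-fold higher (1.29 to 1.74). IFNAR1 did not differ beyond counting error, and the difference between these genes' ratios was not tested.

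Among 17 other inhibitors of the pathway 14 were measured, with 0 at least 2-fold higher, 2 at least 2-fold lower and a median log2 ratio of -0.19. Beside 11% and 8.28% of all measured genes, these counts are close to the background and are no result about the list. The lower genes were SOCS7, 2.13-fold (1.95 to 2.33), and PTPN11, the phosphatase SHP2, 2.07-fold (1.98 to 2.17), and neither reached 2-fold at equal totals. PTPN1, a phosphatase of JAK2 and TYK2, was 1.36-fold higher (1.27 to 1.45), and the adaptor SH2B3 1.38-fold higher (1.21 to 1.57). Of 8 other interferon regulatory factors 4 were measured, and none differed by 2-fold. IRF3, the factor that switches on IFNB1, was 1.62-fold higher in shSIK2 (1.47 to 1.78), and IRF1 was 1.27-fold lower (1.17 to 1.37). As deposited, IRF2 and IRF7 had intervals that include equal levels. At equal totals they were 1.20-fold and 1.28-fold higher in shSIK2.

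**Figure D4:**
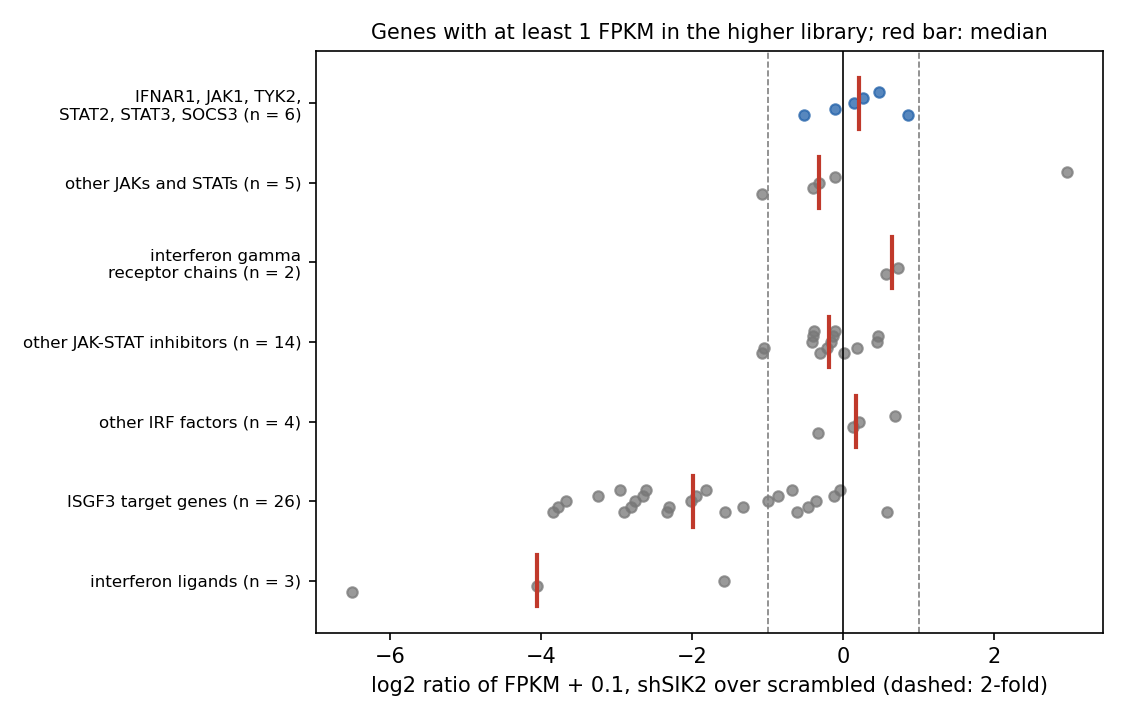
Log2 ratio of FPKM plus 0.1, shSIK2 over scrambled, for each gene whose higher library reached 1 FPKM, by list, with red bars at list medians and dashed lines at 2-fold. The 6 measured components lie between -0.52 and 0.86, while the median of the 26 ISGF3 targets is -1.98. Of these targets 5 passed the minimum through the scrambled library alone.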

How the data were processed

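Per the labels' protocols, RNA was extracted with Trizol and sequenced by a standard Illumina method. The submitters' processing notes name HISAT2 2.0.5 and the build hg18. No source used here gives the counter or its annotation. The authors deposited FPKM values per Ensembl gene, per the file headers. All 58735 identifiers matched GENCODE release 29 (GRCh38), the source of symbols and coordinates printed here, so the aligned build is not settled. FPKM times exonic length gave whole multiples of 58.3 for 100% of values above 0 (relative tolerance 0.001). These multiples were taken as reads. The divisor was the same in both tables, so the deposited values are not scaled to each library's total.

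Log2 ratios are of FPKM plus 0.1, shSIK2 over scrambled, which understates ratios of low genes. Folds are ratios of reads with exact 95% intervals (Clopper-Pearson, conditional on the sum), and levels within a library were compared in FPKM. Reads are not independent molecules, so intervals cover counting error only. GC and length trends were removed as medians in 20 bins each, with GC content taken from the longest transcript. Shared bases are those in exons of any other gene. Alternatives were the scaling, the pseudocount, the minimum, the trend and, added after the data were seen, the unshared length. Scripts were tested on simulated data. Genes and 13 lists were chosen with earlier results of these data known. Named genes were the 9 members, SIK2, IFNB1, overlapping genes and up to 4 measured genes per pathway list with the largest absolute log2 ratio. Marker genes and IL10RB were chosen after their values were seen. Some genes the rule names are not reported here. Python 3.11.15 was used, with matplotlib 3.10.9, scipy 1.17.1, pandas 2.3.3 and numpy 2.4.6.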

Additional observations from a re-analysis of the deposited data

How the results depend on the processing

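No paired analysis was possible because each group had 1 library, and no library could be left out. The median log2 ratio of the measured members, 0.21 as deposited, was 0.34 at equal total reads, 0.31 when centred on the median of measured genes and 0.35 per unshared exonic length (8 members). With the GC and length trend removed it was lower, 0.11. The count of members at least 1.5-fold higher was 1 as deposited and 2 at equal totals. With no minimum on the level, all 9 genes entered, and 1 (SOCS1) was at least 2-fold higher and 3 at least 1.5-fold higher (with STAT2 and IRF9). Per unshared length, an alternative chosen after the data were seen, 1 member (IRF9) was at least 2-fold higher and 2 at least 1.5-fold higher. IRF9 (0.80 and 1.73 FPKM) and IFNAR2 (0.75 and 1.06 FPKM) then passed the minimum through the shSIK2 library alone. The filter therefore gave their higher values in shSIK2, which also enter the median of 0.35 over 8 members. Pseudocounts of 1 and 0.01, a minimum of 5 FPKM and removal of the GC and length trend left the counts as they were. Among the ratios of single members, 42 values under alternatives moved by less than 0.5 of the width of their counting interval and 9 by more, and none that differed beyond counting error changed direction. IFNAR1 and SOCS3, whose intervals as deposited include equal levels, did change sign, IFNAR1 to 0.11 and SOCS3 to -0.25 with the trend removed. Depth limits IFNAR2, IRF9 and SOCS1, with at most 58 reads in a library.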

Other observations

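STAT3 and SOCS3 also serve the gp130 receptor, whose 5 measured ligands were all lower in the shSIK2 library. Of 9 gp130 cytokines 5 were measured, 2 at least 2-fold lower and 0 higher, with a median log2 ratio of -0.92, where 8.28% and 11% of all measured genes were. IL6 stood at 86.8 FPKM in scrambled and 8.70 in shSIK2, 9.98-fold lower (8.87 to 11.3). CNTF, with 48 and 18 reads, was 2.67-fold lower (1.52 to 4.87), and 38.6% of its exonic bases are shared with other genes. CNTF passed the minimum of 1 FPKM through the scrambled library alone, so a lower value in shSIK2 was given by that filter. CNTF is 1 of the 2 genes called 2-fold lower, and these counts are no result about the gp130 cytokines. LIF was 1.89-fold lower (1.73 to 2.07) and CTF1 1.58-fold lower (1.23 to 2.02). The 18 measured STAT3 targets had a median log2 ratio of -0.21, with 1 at least 2-fold higher, FOS (33 and 294 reads), and 1 lower, IL6. FOS passed the minimum through the shSIK2 library alone, so its higher value there was given by the filter, and these counts are no result about the list. HIF1A, a listed target, was 1.99-fold higher (1.94 to 2.04) and passed 2-fold at equal totals, with a log2 ratio of 1.13.

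Among 21 cytokine receptors that use JAK kinases 13 were measured, 3 at least 2-fold higher in shSIK2 and 1 lower, also at equal totals, with a median log2 ratio of 0.36. The shares of all measured genes were 11% and 8.28% as deposited and 13.4% and 6.04% at equal totals, and counts this small are no result about the list. IL27RA passed the minimum through the shSIK2 library alone and PRLR through the scrambled library alone, so the filter gave the direction of both. IL27RA, a receptor that pairs with gp130, had 21 and 206 reads, 9.81-fold higher (6.25 to 16.2). IL6R, the IL-6 binding chain, was 3.06-fold higher (2.56 to 3.68) and EPOR, the erythropoietin receptor, 2.27-fold higher (1.79 to 2.91). PRLR, the prolactin receptor, had 372 and 45 reads, 8.27-fold lower (6.06 to 11.5).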
